A study of Mus musculus with 4 samples.

Results

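γδ T cells that carry the type 17 programme were followed in leukocytes of mouse tumours as 287 of the 23011 cells that passed the quality limits. A cell was a member when it held at least 1 unique molecular identifier (UMI, one counted RNA molecule) of the CD3 chain genes Cd3e, Cd3d and Cd3g, at least 1 of the γδ receptor constant genes Trdc and Tcrg-C1, and at least 1 of Sox13, Cd163l1, Il17a and Blk. It also had to hold 0 UMIs of Cd4, of Cd8a and Cd8b1, and of the B cell gene Cd79a. The untreated library held 62 members, the STING agonist library 62, the LTβR agonist library 62 and the library of both agonists (combination) 101. These genes chose the members, and their levels are given only as a description.

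Live CD45+ leukocytes were sorted from subcutaneous tumours of the mouse pancreatic cancer line KPC, grown in male C57BL/6NHsd mice of 8 to 10 weeks, and their RNA was counted in single droplets. Mice were left untreated, or received the STING agonist ADU-S100 (a cyclic dinucleotide injected into the tumour once), the LTβR agonistic antibody 4H8 (given intraperitoneally and repeatedly), or both. Tumours were taken on day 14 and those of a group were pooled before dissociation. Each group is thus 1 library, values per animal cannot be had, and no test between treatments was possible. Single-cell data of more than 1 experiment are described in the methods, without saying which of them these libraries are.

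The 4 libraries held between 3955 and 7824 barcodes and between 32529174 and 60770280 UMIs, and 3748 to 7147 cells per library passed the limits of 300 to 5000 genes seen and a mitochondrial share of UMIs of at most 6%. A total of 284 barcodes occurred in more than 1 library. Among the members, 10 had a barcode that another library also used, and 0 barcodes belonged to members of 2 libraries. Median depth was 4197.5, 4899, 4096.5 and 4442 UMIs per member in untreated tumours, after the STING agonist, after the LTβR agonist and after both, the order used throughout. The members held 275487, 333647, 316293 and 480381 UMIs in total.

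Most γδ T cells leave the thymus already committed to make interferon-γ or interleukin-17 (IL-17). The IL-17 type needs transcription factors such as Sox13 and Maf, answers to the myeloid cytokines IL-1 and IL-23 without a classical antigen, and settles in skin, mucosa and tumours. Its cells fall into an early fetal wave, whose receptor pairs the Vγ6 chain (gene Tcrg-V6) with Vδ1 (gene Trdv4), and a later wave that uses Vγ4 (gene Tcrg-V4), often with Vδ5 (gene Trdv5).

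The variable segments of these receptors are what tells the waves apart, and they are shown here because the members split by them. Each stretch has 90 bases and ends at the cysteine codon that opens the third, rearranged loop (CDR3). All lie in the variable exons of the segments (mouse build GRCm38). Capitals mark the bases at which a segment differs from its partner in the pair, position by position from the 5′ end.
Tcrg-V6 (chr13:19190827-19190916, plus strand): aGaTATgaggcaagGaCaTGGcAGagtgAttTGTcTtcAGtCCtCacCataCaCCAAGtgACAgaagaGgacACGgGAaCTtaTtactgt
Tcrg-V4 (chr13:19185403-19185492, plus strand): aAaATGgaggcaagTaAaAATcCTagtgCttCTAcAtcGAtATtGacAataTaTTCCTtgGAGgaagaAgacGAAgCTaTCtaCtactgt
Trdv4 (chr14:54075414-54075503, plus strand): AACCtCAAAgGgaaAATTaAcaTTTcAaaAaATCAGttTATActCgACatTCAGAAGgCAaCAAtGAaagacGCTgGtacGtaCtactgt
Trdv5 (chr14:54148674-54148763, minus strand): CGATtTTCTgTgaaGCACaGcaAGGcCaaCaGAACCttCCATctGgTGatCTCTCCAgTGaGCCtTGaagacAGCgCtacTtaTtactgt
The γ segments shared 50 of the 90 bases (55.6%) and the δ segments 39 of 90 (43.3%). The longest run of bases common to both members of a pair within the variable exon was 14 bases for Tcrg-V6 and Tcrg-V4 and 7 bases for Trdv4 and Trdv5, so that these segments are not near-identical copies.

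The label of the members was first checked against genes that the gate did not use. Il23r, the receptor chain for IL-23, was detected in 54.8%, 59.7%, 56.5% and 85.1% of members. Il1r1, the IL-1 receptor, was detected in 69.4%, 82.3%, 77.4% and 77.2%. Il23r and Il1r1 were seen in at most 4.31% and 3.85% of the γδ cells of any library that lacked all of Sox13, Cd163l1, Il17a and Blk (other γδ cells), so that the label held in all 4 libraries. Trac, the constant gene of the αβ receptor, was seen in 11, 11, 9 and 19 members, and the origin of these UMIs was not tested.

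Most members passed the gate by more than the minimum. At least 2 UMIs of the type 17 gate genes were present in 274 of the 287 cells and 1 UMI in the remaining 13, which lie just inside the threshold. The 287 γδ cells just outside it had 0 UMIs of these 4 genes by rule. In the members, 43 carried 1 of the 4 genes, 83 carried 2, 104 carried 3 and 57 carried all 4. Only Il17a admitted 5 cells and only Blk 6.

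Of the gate genes, the scavenger receptor gene Cd163l1 was found in 85.5%, 85.5%, 67.7% and 80.2% of members and the B lymphoid kinase gene Blk in 67.7%, 75.8%, 75.8% and 74.3%. Sox13, a transcription factor of the γδ lineage, was found in 35.5%, 51.6%, 43.5% and 59.4%. Trdc was found in 82.3%, 87.1%, 80.6% and 87.1% and Tcrg-C1 in 79.0%, 83.9%, 74.2% and 79.2%. Macrophages, which should lack these genes and could pick up only free RNA, gave Il17a at 0.12 to 0.37 CPM (UMIs of a gene scaled to a common total of the UMIs of its class in a library), against 1296 to 3039 CPM in the members.

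**Figure D1:**
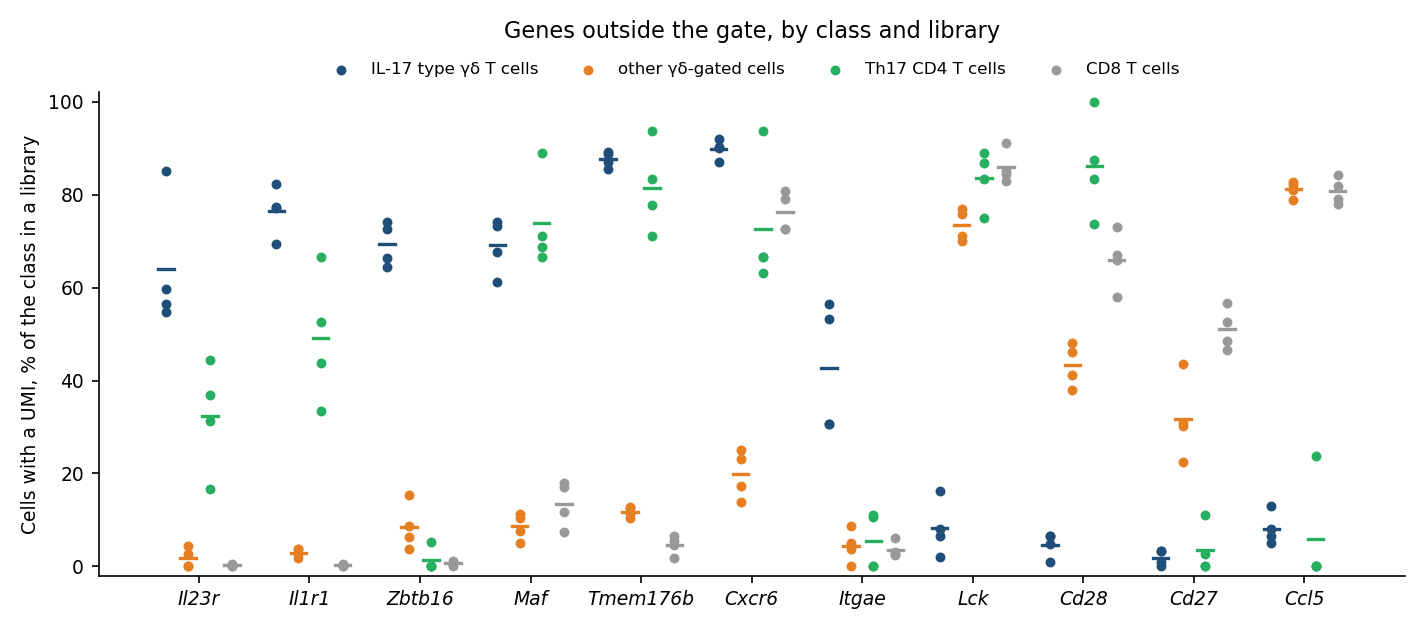
Percent of cells with at least 1 UMI of each gene (y axis) in the members and in the other cell classes, by library. Each point is 1 library and each bar the mean of the 4. For Il23r (54.8% to 85.1%) and Il1r1 the members lie above the other γδ cells and the CD8 T cells in all 4 libraries.

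The question of how common these cells were in each treatment was answered by their share of all filtered leukocytes. Members were 0.914% of the untreated cells (exact Clopper-Pearson 95% interval 0.701 to 1.17), 1.65% after the STING agonist (1.27 to 2.12), 0.867% after the LTβR agonist (0.666 to 1.11) and 1.89% after both (1.55 to 2.30). The libraries with the STING agonist thus held the higher shares, and the interval of each lay above those of the other libraries. The ratio to untreated was 1.81 (1.09 to 3.02, with the exact bounds of the shares set against each other) for the STING agonist, 0.949 (0.569 to 1.58) for the LTβR agonist and 2.07 (1.32 to 3.27) for both. The combination stood at 1.14 times the STING agonist alone (0.730 to 1.81), an interval that includes no difference, and at 2.18 times the LTβR agonist alone (1.39 to 3.45). Intervals cover counting error only, the spread between pools of mice is unknown, and a share can move because other cells do.

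Other denominators gave the same order for the STING agonist and the combination against the rest. Among CD3-positive cells the members were 2.77% (2.13 to 3.54), 4.42% (3.40 to 5.63), 2.53% (1.95 to 3.23) and 4.70% (3.85 to 5.69), and the ratio of the STING agonist to untreated on this base, 1.59 (0.962 to 2.64), no longer kept its interval above 1. Among γδ-gated cells the members were 43.7%, 61.4%, 34.8% and 66.0%, and the ratio of the STING agonist to untreated, 1.41 (0.980 to 2.01), also included 1. The other γδ cells numbered 80, 39, 116 and 52, which is 1.18%, 1.04%, 1.62% and 0.975% of filtered cells, with the highest value after the LTβR agonist alone.

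**Figure D2:**
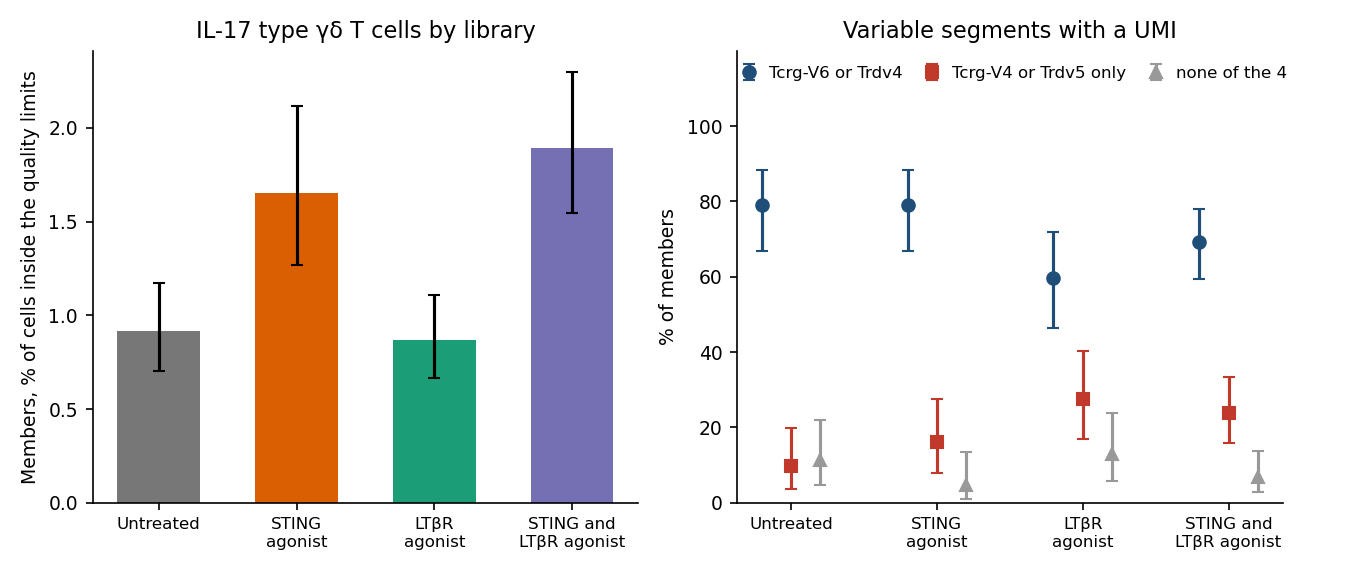
Members as percent of filtered cells (left, y axis) and the percent of members with each receptor segment set (right, y axis) in each library, with exact 95% intervals that cover counting error only. The members sit at 0.914% and 0.867% without and at 1.65% and 1.89% with the STING agonist.

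Receptor segments, which were not genes of the gate, differed between the members. The gate gene Cd163l1 was found more often in members with Tcrg-V6 or Trdv4 than in those with only Tcrg-V4 or Trdv5, as given below. The other γδ cells lack it by rule. The gate thus enters the comparison of segments with these cells, and its part was not told apart. A UMI of Tcrg-V6 or Trdv4, the pair of the fetal wave, was found in 49 of 62 untreated members (79.0%, exact interval 66.8 to 88.3), 49 of 62 after the STING agonist, 37 of 62 after the LTβR agonist (59.7%, 46.4 to 71.9) and 70 of 101 after both (69.3%, 59.3 to 78.1). In all, 205 of the 287 members (71.4%) held at least 1 of these segments, against 6.97% of the other γδ cells. Both Tcrg-V6 and Trdv4 were present together in 42, 46, 24 and 59 cells, which is 171 members (59.6%) against 3 other γδ cells (1.05%). Of the 205 members, 11 (4, 4, 3 and 0) also held a UMI of Tcrg-V4 or Trdv5. Another 57 members (19.9%) held a UMI of Tcrg-V4 or Trdv5 and none of Tcrg-V6 or Trdv4, namely 6, 10, 17 and 24 cells. The last 25 members had none of the 4 segments.

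As shares of filtered cells, the Tcrg-V6 or Trdv4 members after the STING agonist stood at 1.81 times untreated (1.02 to 3.22), after the LTβR agonist at 0.717 times (0.382 to 1.33) and after both at 1.82 times (1.07 to 3.09). The combination was 2.54 times the LTβR agonist alone (1.44 to 4.54). The smaller Tcrg-V4 or Trdv5 set made up 0.0885%, 0.267%, 0.238% and 0.450% of filtered cells. Its ratio of the combination to untreated was 5.09 (1.50 to 20.6) and rests on 6 untreated cells.

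In UMIs, Tcrg-V6 stood at 584, 794, 215 and 491 CPM in the members and Trdv4 at 1220, 2137, 636 and 1422 CPM, so that both were lowest after the LTβR agonist alone. Against the other γδ cells, Tcrg-V6 was higher in members by a log2 fold change of 5.44 ± 0.33 (SE, 4 libraries) and Trdv4 by 5.14 ± 0.31. Each SE of this kind is the size of the log2 fold change divided by the square root of the test's moderated F. The edgeR quasi-likelihood test that gave these values is described with the comparison of classes. Tcrg-V4, at -0.05 ± 0.29, did not pass that test. The choice of cells through Cd163l1 enters these fold changes too, so that they are not independent of the gate.

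The receptor sets differed in other genes. This split was made after seeing the values, so that it is a description with no test. The scavenger receptor gene 5830411N06Rik (also known as Scart2, a relative of Cd163l1) was detected in 55 of the 57 Tcrg-V4 or Trdv5 members (96.5%) and in 3 of the 205 Tcrg-V6 or Trdv4 members (1.46%). By library it was found in 5 of 6, 10 of 10, 17 of 17 and 23 of 24 cells of the first set and in 0 of 49, 1 of 49, 1 of 37 and 1 of 70 of the second. The sets barely overlapped in this gene. Cd163l1 itself had the opposite pattern, with 26.3% and 96.1% of cells, but as a gate gene it helped to choose the cells.

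Il17f, which encodes the close relative of IL-17A, was detected in 17 of the 57 Tcrg-V4 or Trdv5 members (29.8%, exact interval 18.4 to 43.4) and in 4 of the 205 Tcrg-V6 or Trdv4 members (1.95%, 0.534 to 4.92). Il17a was detected in 70.2% and 56.1% of the sets. Pdcd1, the gene of the checkpoint receptor PD-1, was found in 33.3% and 73.7%, the innate-like factor gene Zbtb16 (PLZF) in 45.6% and 77.1%, Tox in 43.9% and 66.8%, and the creatine kinase gene Ckb in 21.1% and 56.6%. The chemokine receptor gene Ccr6 was found in 19.3% and 5.37%. Il23r (68.4% and 68.3%) and Maf (73.7% and 70.7%) were detected at similar percentages. Median depth was 3886 UMIs per cell in the Tcrg-V4 or Trdv5 set and 4714 in the other. These percentages and intervals pool the cells of the 4 libraries. The sets numbered 6, 10, 17 and 24 cells and 49, 49, 37 and 70 cells by library. Differences between treatments thus enter the values and were not told apart from those between the sets.

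**Figure D3:**
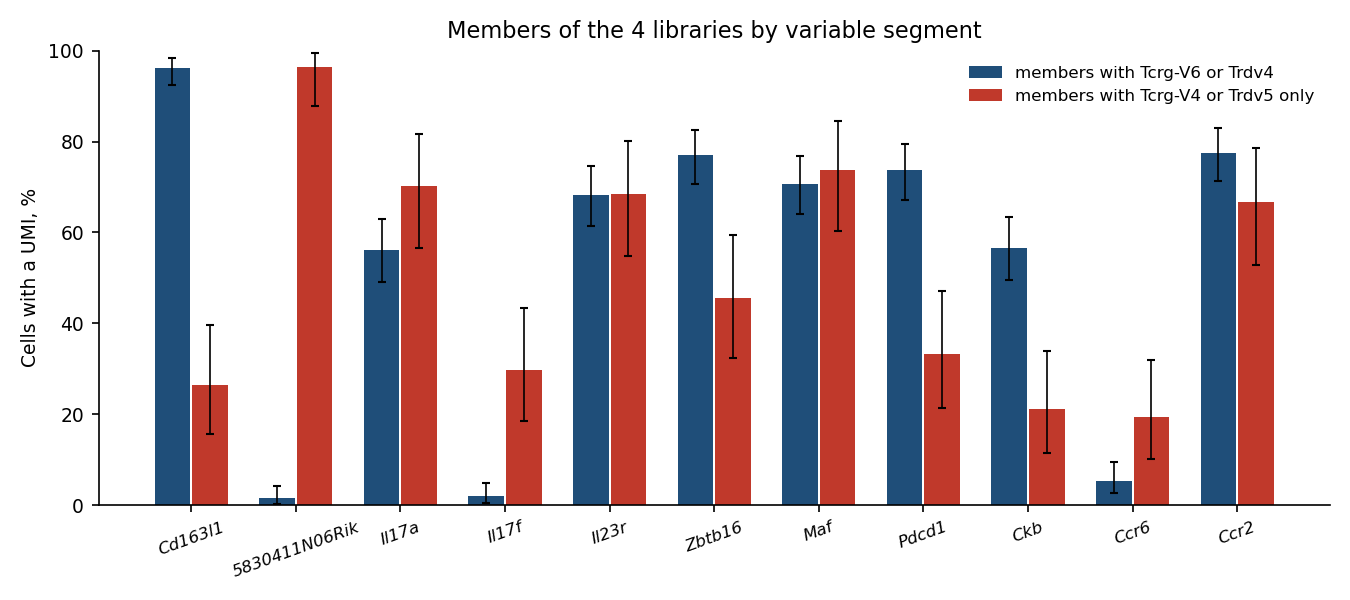
Percent of cells with at least 1 UMI (y axis) of each gene (x axis) in the 205 members with Tcrg-V6 or Trdv4 and the 57 with Tcrg-V4 or Trdv5 only, as bars with exact 95% intervals. The cells of all libraries are pooled. 5830411N06Rik stands at 96.5% of one set and 1.46% of the other, and Il23r at 68.4% and 68.3%.

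Il17a was the main type 17 cytokine of the members. It gave 357, 1014, 424 and 705 UMIs in 25, 41, 39 and 63 members, which is 40.3%, 66.1%, 62.9% and 62.4% of them, and 1296, 3039, 1341 and 1468 CPM. As a gate gene it is described without a test. The STING agonist library was highest per UMI, at a log2 ratio of 1.22 to untreated (0.98 to 1.46), while the combination stood at 0.18 (-0.08 to 0.44) and the LTβR agonist at 0.05 (-0.24 to 0.34). Among members with Tcrg-V6 or Trdv4 alone these Il17a ratios were 0.48 after the STING agonist, -0.12 after both and -0.54 after the LTβR agonist, and 10 members with Tcrg-V4 or Trdv5 held 387 of the 1014 Il17a UMIs after the STING agonist. The 3 highest cells held 39.5%, 30.8%, 25.9% and 19.9% of the Il17a UMIs of their library. The intervals of these ratios count UMIs and leave out this spread between cells.

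The share of Il17a RNA that came from members is a description, since Il17a helped to choose both them and the Th17 cells. Members held 64.0%, 80.6%, 38.8% and 80.8% of all Il17a UMIs of filtered cells, although they were fewer than 2% of these cells. CD4 T cells with an Il17a or Il17f UMI (Th17 cells, 6, 16, 38 and 9 cells) held 7.71%, 9.62%, 33.0% and 2.87%. The LTβR agonist library stood apart in this respect, with the lowest share from members and the highest from Th17 cells.

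Il17f was rarer. It gave 0, 88, 56 and 25 UMIs in 0, 7, 7 and 9 members. With 0 of 275487 UMIs in the untreated library, Il17f was set against a floor of 3 UMIs there, or 10.9 CPM. Over that floor it stood 24.2-fold higher after the STING agonist, 16.3-fold after the LTβR agonist and 4.78-fold after both. These folds take the UMIs of the treated libraries as counted and leave out their counting error. Il17f had fewer than 10 positive members in each library, so that it did not enter the counts of genes past 2-fold. The Tcrg-V4 or Trdv5 members, which numbered 6, 10, 17 and 24, held 87 of the 88, 52 of the 56 and 21 of the 25 Il17f UMIs. Each of these values rests on few cells, since 3 cells held 94.3%, 91.1% and 68.0% of the UMIs. Of the Il17f cells, 22 also held Il17a. Il22, another type 17 cytokine, was detected in the STING agonist library only, in 3.23% of its members, and Ccl20, the ligand of CCR6, in 0 members of every library.

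The next question was which genes, outside the gate, set the members apart from related T cells of the same tumours. UMIs were summed per library and class, 4 sums against 4, and tested with edgeR's quasi-likelihood test with the library as a block and Benjamini-Hochberg adjustment over all genes. Both classes of a library come from 1 pool of tumours, so that the p-values measure the spread over these 4 libraries and not over mice. Genes that pass the filter on low counts through the members alone had to differ, and counts of a list are given beside the same count over all genes tested. The counts over all genes did not leave out the gate genes, some of which differ by rule.

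Against the 287 other γδ cells, 613 of 5124 genes were higher in members (12%) and 561 lower (10.9%). Among the genes higher in members were Il23r, Il1r1, Maf and Zbtb16, and among those lower Ccl5, Gzma, Ifng and Eomes. Of 27 listed transcription factors 21 were tested, with 8 higher and 6 lower and a median log2 fold change of 0.13, where that of all genes was -0.02. Zbtb16 was higher by 3.73 ± 0.28 (adjusted p = 1.55e-06), Maf by 3.32 ± 0.28 (3.36e-06), Irf4 by 3.18 ± 0.24 (1.58e-06) and Rora, a nuclear receptor gene of type 17 cells, by 2.65 ± 0.15 (1.69e-07). Eomes and Tbx21, the factors of interferon-γ and cytotoxic programmes, were lower by a log2 fold change of -4.05 ± 0.47 and -1.96 ± 0.27, and the stem-like factor genes Lef1 and Tcf7 by -2.74 ± 0.25 and -1.50 ± 0.19.

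Cytokine receptors were found on both sides. Il23r stood at 327, 411, 322 and 470 CPM in members and at 0, 3.23, 9.63 and 0 CPM in the other γδ cells, without overlap (log2 fold change 6.27 ± 0.39, adjusted p = 4.07e-07). Il1r1 stood at 454, 563, 534 and 595 CPM against 16.2, 3.23, 4.82 and 19.3 CPM (5.52 ± 0.29, 1.69e-07). Il7r, the receptor of the survival cytokine IL-7, was higher by 1.41 ± 0.11 in members, Il2ra by 3.36 ± 0.25 and Il17re, a chain of the IL-17 receptor family, by 4.84 ± 0.59. Of the 19 listed cytokine receptors 15 were tested, with 4 higher and 8 lower. Among those lower was Il12rb2, the receptor chain for the interferon-γ inducer IL-12, at -3.22.

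The effector genes were mostly lower in members. Of 24 listed other cytokines and effectors 16 were tested, with 3 higher and 10 lower and a median of -2.48. The chemokine gene Ccl5 stood at 24.98 to 225 CPM in members against 3095, 2738, 3448 and 3625 CPM in the other γδ cells (-5.39 ± 0.37, adjusted p = 9.28e-07). Ifng was found at 3 UMIs in the members and 95 in the other γδ cells, a ratio of 0.0376 (0.00635 to 0.136). Gzma, a granule protease, had 11 UMIs against 1427 (-6.83 ± 0.47). The 3 genes that were higher were Tnfsf11 (RANK ligand), at 3.75 ± 0.47, the growth factor gene Areg, at 3.15 ± 0.24, and Ltb, a subunit of the ligand of LTβR, at 1.24 ± 0.17.

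Homing and surface receptors separated the classes as well. The tissue residency genes Cxcr6 (3.53 ± 0.20) and Itgae (3.48 ± 0.36) were higher in members, as were Ccr2 (2.15 ± 0.17) and Cd44 (1.07 ± 0.11), while the genes of recirculating cells Ccr7 (-3.10) and S1pr1 (-1.36 ± 0.23) were lower. These were part of 6 higher and 6 lower among 14 tested genes of the list. Of the 6 tested CD3 and proximal signalling genes outside the gate, 3 were higher and 2 lower. Of the 22 tested γδ, innate and costimulatory receptors, 7 were higher and 13 lower. The costimulatory receptor gene Icos (2.64 ± 0.14) and the checkpoint receptor gene Pdcd1 (2.65 ± 0.21) were higher. Cd27, whose absence is known to mark IL-17 type γδ cells, was lower by -4.50 ± 0.47 on the log2 scale, and Cd28 by -3.41 ± 0.30.

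Of the 12 genes with the highest fold change, 3 had 0 UMIs in the other γδ cells. Mtcl1, a microtubule linker gene, had 112 UMIs in 73 members and was at least 44.5-fold higher, over a floor of 3 UMIs in the class. Zbtb7c, a zinc finger gene, was at least 34.9-fold higher, and Npnt, which encodes the matrix protein nephronectin, at least 33.0-fold. Others were Jcad, Il23r, Coro2b, Ppp1r14c, Cdh10, Il1r1, Abi3bp and Kcnk1. Among the 12 lowest were the killer cell receptor genes Klra1 (0 UMIs in members, at least 42.8-fold lower), Klra7 and Klre1, the chemokine gene Xcl1, Gpr174 and Samd3. Gzma, Gzmc, Ccl5, Car2, Atp1b1 and Ifng completed this set.

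Lists of stimulation genes were shifted in part. Of 20 immediate early, stress and dissociation genes 11 were higher and 1 lower (median 0.70), among them Fosb at 1.65 ± 0.16 and Fos at 1.13 ± 0.18. Of 26 tested interferon response genes 8 were higher and 0 lower (median 0.35), led by Igtp (1.74 ± 0.18) and Gbp2 (1.24 ± 0.27). Of the STING, NF-κB and lymphotoxin pathway 3 of 16 tested genes were higher, of the glycolysis and lipid genes 4 of 11 higher and 1 lower, of the cell cycle genes 2 of 5 lower, and of the survival genes 2 of 8 higher and 2 lower. Bcl2, which protects from cell death, was among the latter, at -1.96 ± 0.17. Among 16 genes known to mark IL-17 type γδ cells, outside the gate, 13 were higher and 0 lower, with the membrane protein genes Tmem176a (4.35 ± 0.23) and Tmem176b (4.13 ± 0.22), the water channel gene Aqp3 (4.58 ± 0.27) and Actn2 (4.84 ± 0.32).

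The other γδ cells were themselves mixed. A UMI of the natural killer genes Klrb1c or Ncr1 was present in part of them, and without these cells, which left 40, 17, 67 and 31, a setting chosen after seeing the data, 435 genes were higher and 412 lower of 4838. All 12 of the highest genes kept their call. Of the 12 lowest, Klra7, Klre1, Gpr174, Samd3, Ccl5 and Xcl1 kept theirs, and the others no longer passed the filter on low counts. Gzmb, lower by -2.44 ± 0.33 in the full comparison, lost its call (-1.01, adjusted p = 0.103), as did Tox (0.47, 0.385) and Gbp2 (0.74, 0.104).

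Against the 3548 CD8 T cells, 1190 of 10338 genes were higher in members (11.5%) and 1225 lower (11.8%). Among the genes higher in members were Il23r, Il1r1 and Zbtb16, and among those lower several granzyme genes, Lag3 and Mki67. Of 26 tested transcription factors 9 were higher and 10 lower. Zbtb16, the factor of innate-like lymphocytes, stood at 378, 486, 285 and 437 CPM against 1.09, 0.207, 1.86 and 0.630 CPM (8.52 ± 0.27, adjusted p = 7.72e-12). Il23r was higher by 9.68 ± 0.30. All 5 tested type 17 cytokines and partners were higher in members, and beside Il23r, Il1r1 and Il7r these were Ccr6 (4.02 ± 0.66) and Tnf (2.11 ± 0.27).

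Of the 12 lowest genes against CD8 T cells all had 0 UMIs in the 287 members. Gzmf was at least 148-fold lower, Gzmk at least 46.0-fold, Gzmd at least 31.9-fold and Gzme at least 24.0-fold, over a floor of 3 UMIs in the members. Together these are 4 granzyme genes. Prf1, the pore-forming protein of killer cells, was lower by -6.24 ± 0.22 and Ifng by -7.35 ± 0.32, within 12 lower and 5 higher of 20 tested effector genes. Lag3, a checkpoint receptor, was lower by -7.69 ± 0.28 and Tigit by -4.50 ± 0.28, within 17 lower and 4 higher of 27 receptors. Pdcd1 did not differ beyond the spread, with 421, 504, 168 and 450 CPM in members and 418, 554, 331 and 453 CPM in CD8 T cells (-0.31 ± 0.14, adjusted p = 0.128).

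Cell division genes were low in members. Of 15 cell cycle genes 12 were lower and 0 higher (median -2.22), with Mki67 at 7.26, 30.0, 9.48 and 4.16 CPM against 97.1, 90.9, 121 and 94.4 CPM in CD8 T cells (-3.10 ± 0.32, adjusted p = 3.21e-06). Glycolysis and lipid genes were lower in 9 and higher in 1 of 16, where the 1 was the lipid droplet gene Plin2 (1.66 ± 0.19). Immediate early genes were higher in 11 and lower in 3 of 20, interferon response genes higher in 11 and lower in 4 of 26, and the STING, NF-κB and lymphotoxin genes higher in 7 and lower in 0 of 19, led by the inhibitor gene Nfkbia (1.77 ± 0.11). Of 16 known markers 13 were higher and 1 lower, of 17 homing genes 10 higher and 6 lower, of 7 CD3 and proximal signalling genes 2 higher and 3 lower, of 18 cytokine receptors 5 higher and 4 lower, and of 8 survival genes 2 higher and 2 lower. Among the highest fold changes were those of Abi3bp (357 UMIs in members and 2 in CD8 T cells), Mtcl1, Kcnk1, Cdh10, Il1r1, Il23r, Dkk3, Tdrd9, Zfp462, Fstl4 and Csgalnact1, the last with 0 UMIs in CD8 T cells and at least 365-fold higher.

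The members were also compared with the 69 Th17 cells, whose sums are much smaller than those of the other classes, so that the number of calls cannot be set against theirs. Against these CD4 T cells, 110 of 4321 genes were higher in members (2.55%) and 92 lower (2.13%). The type 17 core passed the test only in part. Maf, at 0.28 ± 0.24 (adjusted p = 0.713), Rora, at 0.15 ± 0.17 (0.807), and Il7r, at 0.18 ± 0.19 (0.771), did not pass. Il17f was chosen by the gate of the Th17 cells and is not read. Il23r was higher in members by 1.41 ± 0.30 (0.00599), but lost its call without the combination library (1.20, 0.0772). Il1r1 was higher by 1.41 ± 0.24 (8.56e-04).

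Genes of costimulation and proximal receptor signalling were prominent among those lower in members. Lck, the kinase that starts αβ receptor signalling, stood at 58.1, 18.0, 37.9 and 4.16 CPM in members and at 314, 295, 287 and 423 CPM in Th17 cells (-3.70 ± 0.42, adjusted p = 8.97e-06). It was as far below in the comparison with CD8 T cells (-3.97 ± 0.31) and with the other γδ cells (-3.76 ± 0.35). Themis, an adaptor of the same step, was lower by -3.51 ± 0.30, -4.34 ± 0.22 and -1.91 ± 0.31 against Th17, CD8 and other γδ cells. Cd28 was lower by -4.66 ± 0.34, -4.01 ± 0.24 and -3.41 ± 0.30, and the adhesion receptor gene Cd2 by -2.90 ± 0.31, -2.65 ± 0.22 and -2.36 ± 0.27. Cd247, the ζ chain of the receptor, was instead higher in members in all 3 comparisons, at 1.20 ± 0.23, 1.16 ± 0.11 and 1.13 ± 0.17.

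Against Th17 cells the 12 lowest genes were Tnfrsf4 (OX40), Tnfsf8, Cd28, Cd40lg, Cd6, Cd5, Tigit, Lck, Themis, Il1r2, Cd2 and Ctla2a, most of them costimulatory or inhibitory surface proteins of CD4 T cells. Ctla2a lost its call without the combination library (-2.12, adjusted p = 0.175) and also when DESeq2 was used in place of edgeR (-3.56, adjusted p = 0.144). Of 20 tested γδ, innate and costimulatory receptors 3 were higher and 8 lower, and Pdcd1 was among the higher (2.31 ± 0.34). Of the 12 highest genes, Abi3bp, Auts2, Mtcl1 and Kcnk1 had 0 UMIs in the Th17 cells and were at least 36.0-, 12.7-, 11.3- and 10.1-fold higher. Others were Clnk, Pde5a, Adgrg5, Zbtb16, Pard3, Cryba4 and Slc16a10. Abi3bp (an extracellular matrix gene), Mtcl1 and Kcnk1 (a potassium channel gene) were among the 12 highest in each of the 3 comparisons.

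A smaller number of genes of the other lists passed against Th17 cells. Transcription factors were 5 higher and 1 lower of 19, with Ikzf3 at 1.23 ± 0.19 and Zbtb16 at 4.70 ± 0.50. Known markers were 4 higher and 1 lower of 15, homing genes 2 higher and 3 lower of 13, type 17 cytokines and partners 2 higher and 1 lower of 6, effectors 1 higher and 1 lower of 9, cytokine receptors 1 higher and 2 lower of 13, and interferon response genes 0 higher and 2 lower of 25. Ccr6 was the 1 lower among the type 17 genes, at 7.26, 15.0, 31.6 and 29.1 CPM in members and 78.4, 131, 88.2 and 219 CPM in Th17 cells (-2.59 ± 0.42, adjusted p = 4.89e-04). Immediate early genes were 2 higher of 20. The CD3 and proximal signalling genes were 1 higher and 3 lower of 7. The STING, NF-κB and lymphotoxin, the glycolysis and lipid, the cell cycle and the survival lists had 0 calls in either direction. They held 15, 14, 4 and 8 tested genes, where 2.55% of all genes were higher and 2.13% lower. The Th17 sums were small, with 6 cells in the untreated library.

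**Figure D4:**
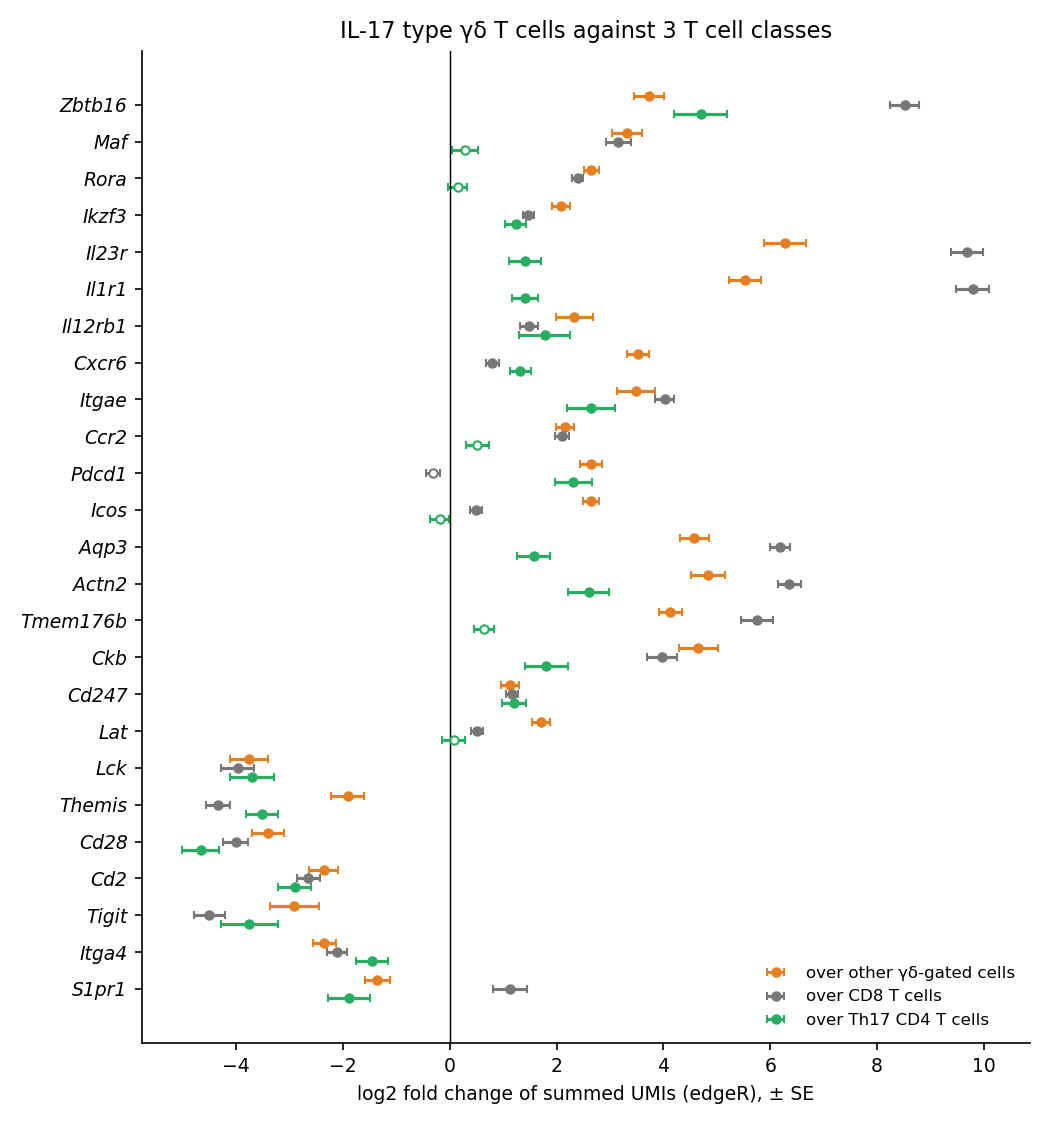
Log2 fold change of members over each of the 3 other classes (x axis) for genes outside the gate, from edgeR. The SE is derived from the moderated F of its test on 4 libraries. Lck, Themis and Cd28 lie below 0 and Zbtb16, Il23r and Il1r1 above 0 in each comparison.

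The last question was how gene expression within the members differed between treatments. With 1 library per group no test was possible, and a gene was counted past 2-fold when its log2 ratio of CPM, after adding 10 CPM to each value, was at least 1 in size with at least 50 UMIs and 10 positive member cells in the higher library. Shared untreated cells enter the first 3 comparisons. After the STING agonist 17 of 1185 genes were past 2-fold higher than untreated (1.43%) and 13 lower (1.1%). After the LTβR agonist these were 23 of 1103 (2.09%) and 9 (0.816%). After both they were 14 of 1422 (0.985%) and 13 (0.914%). The combination over the STING agonist alone gave 15 of 1563 higher (0.96%) and 8 lower (0.512%), and over the LTβR agonist alone 13 of 1553 higher (0.837%) and 31 lower (2%).

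Ratios of the type 17 core were small. Il1r1 (log2 ratios to untreated 0.31, 0.23 and 0.38 for the STING agonist, the LTβR agonist and both) and Il7r (-0.22, 0.01 and 0.06) had intervals that included 0 in each case. Il23r was at 0.51 (0.03 to 1.00) after both and at 0.32 (-0.21 to 0.86) and -0.02 (-0.59 to 0.56) after the single agonists. Maf was at 0.24, -0.37 and 0.03, and Zbtb16 at 0.35, -0.40 and 0.21, with all intervals including 0. Transcription factors held 0 genes past 2-fold in 4 of the 5 comparisons and 1, Irf4 at 1.00, in the combination over untreated. Between 12 and 15 of them were tested in each comparison. The type 17 cytokine and partner list had 3 genes that could be tested, none past 2-fold in any comparison.

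Areg, which encodes the tissue repair growth factor amphiregulin, had the highest ratio after the STING agonist. It stood at 98.0, 629, 180 and 331 CPM in 7, 12, 9 and 21 members, a log2 ratio to untreated of 2.57 (1.87 to 3.29) after the STING agonist and 1.66 (0.93 to 2.41) after both, where the 3 highest cells held 57.9% to 77.8% of its UMIs in each library. Hopx followed at 2.34, but 65.8% of its UMIs after the STING agonist came from 1 cell, and without the highest cell of each library it stood at 1.08. Nfkbib (1.68), the nuclear lamina gene Lmna (1.65) and Ckb (1.37) were also among the highest. For Ckb the levels were 152, 411, 114 and 248 CPM, with 43.5%, 59.7%, 40.3% and 46.5% of cells positive.

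Bcl2 was the gene with the lowest ratio after the STING agonist. It stood at 595, 162, 322 and 244 CPM in 41, 22, 29 and 42 members. Its log2 ratio to untreated was -1.82 (-2.42 to -1.23) after the STING agonist, -0.86 (-1.37 to -0.37) after the LTβR agonist and -1.26 (-1.73 to -0.78) after both, so that all 3 treated libraries lay below the untreated one. Gimap4 (-1.35), Ms4a4b (-1.30), Smyd3 (-1.24), Ramp3 (-1.23) and Zbtb20 (-1.19) were the next lowest.

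After the LTβR agonist the highest ratios were those of myeloid genes. Lyz2, a lysozyme gene of macrophages and neutrophils, was at 4.06, Ifitm3 at 2.65, Msrb1 at 2.34, Plek at 2.18, Ctsc at 2.03 and Il1b at 1.99. Members with at least 2 markers of macrophages, neutrophils or B cells numbered 3, 3, 9 and 11, and the summed level of the 5 neutrophil markers in members was 14.5, 51.0, 2517 and 2.08 CPM and that of the 8 macrophage markers 142, 120, 879 and 849 CPM. Without these cells, a setting chosen after seeing the data, Lyz2 stood at 1.68, Plek at 1.16, Msrb1 at 0.82, Ifitm3 at 0.24, Il1b at -0.30 and Ctsc at -1.15. Lyz2 is itself among the 8 macrophage markers that helped to choose the cells left out, so that its fall is partly built in. The counts without these cells were 4 higher and 8 lower of 853.

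Pdcd1 differed in the LTβR agonist library. At 421, 504, 168 and 450 CPM, in 45, 46, 23 and 62 members, it had a log2 ratio of -1.28 (-1.93 to -0.64) to untreated there. The combination over the LTβR agonist stood at 1.37 (0.81 to 1.95). Among members with Tcrg-V6 or Trdv4 the ratio of the LTβR agonist to untreated was -1.07, and without the cells with other markers -0.96. Gzmb, a granule protease, stood at 254, 123, 60.1 and 35.4 CPM and had the lowest ratio after the LTβR agonist, -1.91, and a value of -2.54 (-3.43 to -1.64) after both. Its 19 and 17 UMIs in these libraries are few, and without the cells with a Trac UMI the LTβR agonist ratio was -0.62. Prdx1 (-1.38) had 63.4% of its untreated UMIs in 1 cell. Pld3 (-1.23), Capns1 (-1.04) and Pecam1 (-1.04) completed the 6 lowest.

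After both agonists the highest ratios were those of Lyz2 (4.62, with 82.7% of its UMIs in 1 cell), Areg (1.66), Rrad (1.39), the Krüppel-like factor gene Klf4 (1.28), the gate gene Sox13 (1.21) and Plk3 (1.19). The lowest were Plac8 (-2.54), Gzmb (-2.54), Ifi27l2a (-1.70), the interferon response gene Rnf213 (-1.42), Prdx1 (-1.39) and Bcl2 (-1.26). Rnf213 stood at 312, 162, 386 and 110 CPM in 35, 29, 38 and 26 members, lowest in the libraries with the STING agonist. The interferon list as a whole had 1 gene past 2-fold lower of 11 after both (Ifi27l2a), 3 of 15 higher after the LTβR agonist (Isg15, Oasl2 and Gbp2) and 0 of 12 after the STING agonist, and 5 of 14 lower in the combination over the LTβR agonist alone (median -0.80, where that of all genes was 0.11). Without the members that held markers of other cells, interferon genes past 2-fold after the LTβR agonist were 1 higher and 1 lower of 12, with Isg15 at -0.40, Oasl2 at 0.73 and Gbp2 at 0.65, and those in the combination over the LTβR agonist 1 lower of 9.

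Of the other lists few members passed 2-fold. The STING, NF-κB and lymphotoxin list, the cell cycle list and the glycolysis and lipid list had 0 in all 5 comparisons, as did the cytokine receptors, the homing genes and the CD3 and proximal signalling list. Per comparison only 7 to 9, 2 to 3, 9 to 10, 6 to 7, 8 and 3 genes of these lists were tested. Over all genes 0.512% to 2.09% were past 2-fold in a given direction, so that 0 of so few genes lies near that share. Known markers had 2 higher of 12 after the STING agonist (Ckb and Serpinb1a), 2 higher of 13 after the LTβR agonist (Lgals3 and Cd9) and 0 of 13 after both. Without the members that held markers of other cells, Lgals3 stood at 0.83 and Cd9 at 0.71, and 0 of 11 known markers were past 2-fold after the LTβR agonist. Immediate early genes had 0 of 14, 14 and 16 tested in the comparisons with untreated. Of 8 tested γδ, innate and costimulatory receptors 2 were higher and 1 lower after the LTβR agonist. In the combination they were 0 and 1 of 8 over the STING agonist, and 1 and 1 of 8 over the LTβR agonist. The largest ratio after the LTβR agonist was that of 5830411N06Rik (1.56, 0.97 to 2.17). In that library 17 of 62 members had Tcrg-V4 or Trdv5 against 6 of 62 in the untreated library, and the segment Tcrg-V6 was lower (-1.40). Ltbr, the target of the antibody, was detected in 1.61%, 1.61%, 1.61% and 1.98% of members, and in 36.6% to 45.7% of macrophages. Tmem173, the gene of STING, was detected in 21.0%, 21.0%, 21.0% and 15.8% of members. The ligand gene Ltb was detected in 83.9%, 87.1%, 80.6% and 90.1%.

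**Figure D5:**
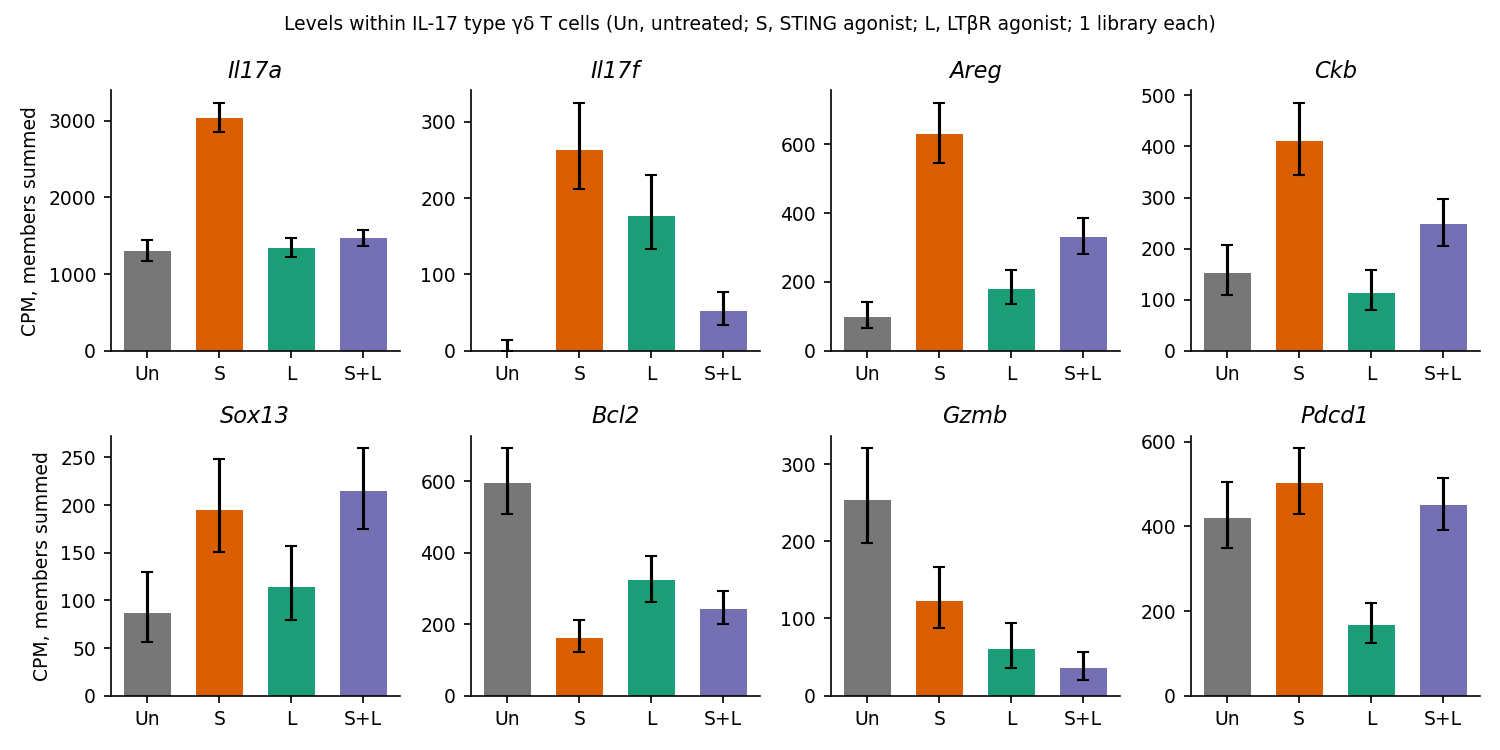
Levels in the members (y axis, CPM with exact Poisson 95% intervals) of Il17a, Il17f and genes with large ratios between treatments, as 1 bar per library. Bcl2 is highest in untreated members (595 CPM), Areg highest after the STING agonist (629 CPM) and Pdcd1 lowest after the LTβR agonist (168 CPM).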

How the data were processed

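The authors deposited raw UMI counts of droplet based (Chromium) single-cell libraries for all barcodes of the 4 libraries in 1 matrix, made with Cell Ranger 7.1.0 against mm10 per the labels, and the number after the barcode hyphen gives the library. Kept were cells with 300 to 5000 genes seen and a mitochondrial share of at most 6%. The members and the gene lists were chosen with earlier results of these data known. Columns without a sample numbered 0.

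UMIs were summed per library and class. Classes were compared with edgeR 4.0.16 in R 4.3.3 (quasi-likelihood test, TMM scaling, filterByExpr, library as block, Benjamini-Hochberg adjusted p under 0.05 called). Gate genes were left out of the lists and of the named genes, but not of the counts over all genes tested. The library is a block because both classes of a library come from the same pool of tumours. Other γδ cells passed the γδ gate without a type 17 gate gene. CD8 T cells had a CD3 UMI, a Cd8a or Cd8b1 UMI and none of Cd4, Trdc or Tcrg-C1, and Th17 cells a CD3, a Cd4 and an Il17a or Il17f UMI and none of Cd8a, Cd8b1, Trdc or Tcrg-C1. The named genes were the 12 with the largest fold change per direction in a class comparison, among those called, outside the gates, with the same direction in all 4 libraries and at least 50 UMIs in the higher class, and the 6 with the largest ratio per direction in each comparison with untreated, among those past 2-fold, plus the genes of the fixed lists.

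Treatments, with 1 library each, had no test. CPM are counts scaled to a common total of the summed UMIs of the members, log2 ratios have 10 CPM added, and a gene entered with at least 50 UMIs and 10 positive member cells in the higher library. Intervals are exact at 95% (Clopper-Pearson or Poisson), those of ratios set the bounds against each other, and the floor for 0 is 3 UMIs. They cover counting error only, and 62 to 101 members per library limit the precision. Poisson intervals treat each UMI as independent and leave out the spread between cells, so that they are too narrow where few cells hold many UMIs. Folds over the floor of 3 UMIs, also those given as at least, take the counts of the other side as measured and leave out their counting error.

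Doublets were kept. Members with a Scrublet score over 0.2 (2, 1, 4 and 1) or with at least 2 markers of other cell types were left out in alternatives. Further alternatives were DESeq2 1.42.0, other filters, scalings and pseudocounts, stricter gates, thinning to 1000 UMIs and leaving out each library. Variable segment sequences come from the GRCm38 genome with its GENCODE annotation. A few genes that meet these rules are not reported here. Scripts ran in Python 3.11.15 and were tested on simulated data.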

Additional observations from a re-analysis of the deposited data

Results flagged for a closer look

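Some genes of the members had ratios of opposite direction for the same agonist given without and with the other agonist. With 1 library per group this difference was not tested. Il17f had 0 UMIs in untreated members and stood 24.2-fold over the floor of 3 UMIs after the STING agonist. Its log2 ratio of the combination to the LTβR agonist, the same step in the presence of the other agonist, was -1.59. For the LTβR agonist Il17f stood 16.3-fold over this floor without the STING agonist, and its log2 ratio was -2.14 with it. The Il17f UMIs came from 7, 7 and 9 cells, most of them with Tcrg-V4 or Trdv5.

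For the LTβR agonist, given without and with the STING agonist, Il1b had log2 ratios of 1.99 and -1.08, Lmna of 0.91 and -0.88, and Plac8 of 1.25 and -1.77. Cells with at least 2 macrophage, neutrophil or B cell markers numbered 3 in untreated tumours, 3 after the STING agonist, 9 after the LTβR agonist and 11 after both. Without them Lmna stood at 0.56 and -0.94 in the same comparisons, and Il1b stood at -0.30 and Plac8 at -2.09 for the LTβR agonist over untreated.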

How the results depend on the processing

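Shares of members and their ratios moved by less than their intervals in 77 of 90 alternatives. The exceptions were other denominators (of T cells 2.77%, 4.42%, 2.53% and 4.70%, of γδ-gated cells 43.7%, 61.4%, 34.8% and 66.0%), cells thinned to 1000 UMIs (0.409%, 0.930%, 0.495% and 1.05%, with 179, 92, 274 and 176 shallower cells left out), and the LTβR agonist library with at least 2 Trdc or Tcrg-C1 UMIs (0.644%). All 12 shares of receptor segments stayed within their intervals.

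Counts of genes between classes stayed within 1.5 times in 45 of 52 alternatives. The others were a change of at least 2-fold (362 higher and 275 lower against other γδ cells, 663 and 724 against CD8 T cells), DESeq2 against other γδ cells (408 higher), no filter against Th17 cells (215 higher) and Th17 cells without the STING agonist library (61 lower). DESeq2 called 789 of 1174, 2009 of 2415 and 154 of 202 of the same genes. Leaving out 1 library gave 522 to 571 higher and 472 to 561 lower against other γδ cells, 871 to 1099 and 848 to 1195 against CD8 T cells, and 88 to 105 and 61 to 85 against Th17 cells. Without the block for the library, which pairs the classes, the counts were 627 and 572, 1269 and 1191, and 112 and 88. Of 5268 values of single genes 5010 kept their status, which includes genes called in neither setting. A call was lost in 156 and gained in 101. In 1 the direction reversed, Fabp5 against CD8 T cells without the LTβR agonist library (-1.02, and 0.21 to 0.29 without another library).

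Counts by treatment depend on the limits. In the order of the report's comparisons, genes past 2-fold numbered 156, 125, 106, 84 and 163 with at least 20 UMIs and 903, 1001, 709, 519 and 810 with no filter. With 50 CPM added they were 14 for the STING agonist and 12, 9 and 28 for the comparisons of the combination. Without Scrublet-marked cells they were 16 for the LTβR agonist and 27 for the combination over it, and without the top cell of each gene 20 for the LTβR agonist and 8 for the combination over the STING agonist. Without cells with other markers, chosen after seeing the data, they were 12 for the LTβR agonist, 14 for the combination over the STING agonist and 22 over the LTβR agonist, and directions reversed for Ctsc (-1.15 and 1.04), Il1b (-0.30 and 0.41) and Plac8 (-2.09) for the LTβR agonist over untreated and, second value, the combination over it, and for Msrb1 (0.48) and Plek (0.20) in the latter. Except where the construction shows it, the cause was not tested.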

Other observations

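Gate genes were also counted one by one over all filtered cells inside the members' rule. Sox13-positive members were 0.324%, 0.854%, 0.378% and 1.13% of filtered cells, Cd163l1-positive members 0.781%, 1.41%, 0.588% and 1.52%, Il17a-positive members 0.369%, 1.09%, 0.546% and 1.18%, and Blk-positive members 0.619%, 1.25%, 0.658% and 1.41%. These are overlapping parts of the same members, chosen by these genes. Outside the quality limits the gate would have admitted 2, 0, 1 and 0 further barcodes. Tnf gave 34, 34, 9 and 30 UMIs in 12, 20, 7 and 18 members, lowest after the LTβR agonist alone.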
